A study of Rattus norvegicus with 4 samples.

Results

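The comparison is between rat donor kidneys perfused cold and then warm with low molecular weight heparin in both perfusates and kidneys that had cold perfusion only. It uses 2 of the 4 arrays of the study, the heparin array and the cold array, and covers the 9393 of 14217 named genes that were above a floor on at least 1 of the 4 arrays. Each difference is the deposited log2 value on the heparin array minus that on the cold array, so 1 unit is 2-fold and a positive value means a higher level with heparin. A gene with several probe sets is represented by the probe set that averaged highest across all 4 arrays. Weak signals were set to a floor of 4.51, the median of every deposited log2 value.

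All kidneys came from male Wistar rats, an outbred stock, of 300 to 480 g. Every left kidney had 29 min of warm ischaemia inside the body before it was taken and flushed, a model of donation after circulatory death, and then 3 h of machine perfusion with cold University of Wisconsin preservation solution. Heparin kidneys had 10 IU/ml of low molecular weight heparin in that solution and in the oxygenated modified Krebs-Henseleit buffer that perfused them warm for the next 30 min. Warm kidneys had the same 30 min with no supplement, and PPS kidneys had 10 IU/ml of PPS, which the labels do not spell out, in both perfusates. Cold kidneys were taken at the end of the 3 h, with neither warm perfusion nor a supplement. The study's design names simulated reperfusion and the anti-inflammatory properties of the supplements as its question. Heparin and cold kidneys differ in the warm perfusion, the extra 30 min, the heparin and the donor rats together. These cannot be told apart from this pair of arrays. The warm and PPS arrays are therefore given beside it for each gene, and every difference from cold shares the 1 cold array.

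As a model the kidneys were limited to an isolated organ with no blood, and each array held an equimolar pool of RNA from 3 kidneys, the best in quality of their group, with 6 ug of total RNA in the labelling reaction. With 1 array a side there was no spread between replicates, so no difference below has a test, an error or a p-value. A gene was counted as higher or lower when it differed by 2-fold or more. In whole-kidney RNA, fewer cells of a type and less RNA per cell cannot be told apart.

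Reperfusion of an ischaemic organ is known to switch on immediate early genes, which are transcribed within minutes by factors already present in the cell, among them serum response factor, CREB and NF-kappaB. Many of them encode transcription factors of the AP-1, Egr and Nr4a families. Others encode brakes on the same signals, such as phosphatases of MAP kinases and proteins that speed the decay of cytokine messenger RNA. In the kidney, tubule and endothelial cells also release chemokines that draw in leukocytes. Heparin, a sulphated glycosaminoglycan, is an anticoagulant that acts through antithrombin, and it also binds many chemokines and growth factors.

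Promoter windows of 5 genes that were higher with heparin are shown because they carry the binding motifs of the factors just named. They are the 250 bases before the gene start in RefSeq's table for the rat assembly GRCr8, read 5′ to 3′ on the gene's strand. Egr1 is at chr18:26736828-26737077 on the plus strand, with capitals marking the 2 serum response elements matched in this window, also called CArG boxes. Zfp36 is at chr1:92799109-92799358 on the minus strand, with capitals marking a serum response element. Dusp1 is at chr10:17184603-17184852 on the plus strand, with capitals marking a cyclic AMP response element, the CREB site. Cxcl1 is at chr14:17479322-17479571 on the minus strand and Nfkbiz at chr11:58251471-58251720 on the plus strand, both with capitals marking an NF-kappaB site.
Egr1: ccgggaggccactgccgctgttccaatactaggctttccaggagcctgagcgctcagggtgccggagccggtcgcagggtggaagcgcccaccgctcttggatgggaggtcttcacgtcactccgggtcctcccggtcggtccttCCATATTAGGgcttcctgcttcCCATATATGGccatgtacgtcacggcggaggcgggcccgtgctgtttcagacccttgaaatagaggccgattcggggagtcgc
Zfp36: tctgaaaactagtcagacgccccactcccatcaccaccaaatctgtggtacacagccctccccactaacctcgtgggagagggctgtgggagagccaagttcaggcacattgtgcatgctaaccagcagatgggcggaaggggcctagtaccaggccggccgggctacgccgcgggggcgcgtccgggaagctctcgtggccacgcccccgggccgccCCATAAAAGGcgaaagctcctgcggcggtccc
Dusp1: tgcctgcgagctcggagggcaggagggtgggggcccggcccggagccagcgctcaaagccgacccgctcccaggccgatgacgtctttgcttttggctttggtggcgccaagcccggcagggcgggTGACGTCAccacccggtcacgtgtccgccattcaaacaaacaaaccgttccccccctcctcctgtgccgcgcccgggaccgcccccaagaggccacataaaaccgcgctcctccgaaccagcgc
Cxcl1: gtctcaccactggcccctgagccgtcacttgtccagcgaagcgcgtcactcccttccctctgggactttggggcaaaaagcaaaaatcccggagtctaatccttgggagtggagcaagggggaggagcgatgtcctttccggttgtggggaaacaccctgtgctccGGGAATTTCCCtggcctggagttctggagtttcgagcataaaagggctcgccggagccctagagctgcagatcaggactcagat
Nfkbiz: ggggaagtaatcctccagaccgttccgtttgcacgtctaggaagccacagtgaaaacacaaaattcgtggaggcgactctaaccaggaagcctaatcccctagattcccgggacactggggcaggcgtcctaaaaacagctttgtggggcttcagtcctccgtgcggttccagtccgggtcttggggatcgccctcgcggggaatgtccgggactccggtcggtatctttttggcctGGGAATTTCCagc

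The elements of Egr1 began at -105 and -83 from the gene start, that of Zfp36 at -32, that of Dusp1 at -124, the run in Cxcl1 at -84 and the site of Nfkbiz at -13. The run in Cxcl1 holds overlapping matches on both strands, and the element of Zfp36 overlaps a match to the Sp1 box. A match is a description of the letters and not a bound site.

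Among the 9393 genes, 110 (1.17%) were higher with heparin by 2-fold or more and 86 (0.916%) were lower, together 196 (2.09%). These shares are the background for every list count below. The differences of 90.6% of genes were smaller than 0.5, and the median was 0. Of the genes that were higher, 34 differed by 4-fold or more and 15 by 8-fold or more, against 12 and 4 of those that were lower. Most of the 110 were measured above the floor on both arrays, and 17 sat at the floor on cold, so that their fold is a lower bound. Likewise 11 of the 86 were at the floor on the heparin array. The genes nearest the limit were Fst at 1.003 and Rpl37-ps2 at 1.005 just inside it, Hook3 at 0.999 and Rtel1 at 0.997 just outside it, C1r at -1.002 and Mmp2 at -1.02 just inside the lower limit, and Tsfm at -0.991 and Noct at -0.987 just outside that. Where other probe sets of the same gene were above the floor, 15 of 18 differed in the same direction for genes that were higher and 15 of 19 for genes that were lower. A stricter floor, at the 60th percentile of all values, ends some calls. So does the median over a gene's probe sets in place of 1 probe set. Many ended calls are named beside the genes below, but a call without such a remark was not always kept. Some genes are above the floor on no array under these settings, which also loses their call.

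**Figure D1:**
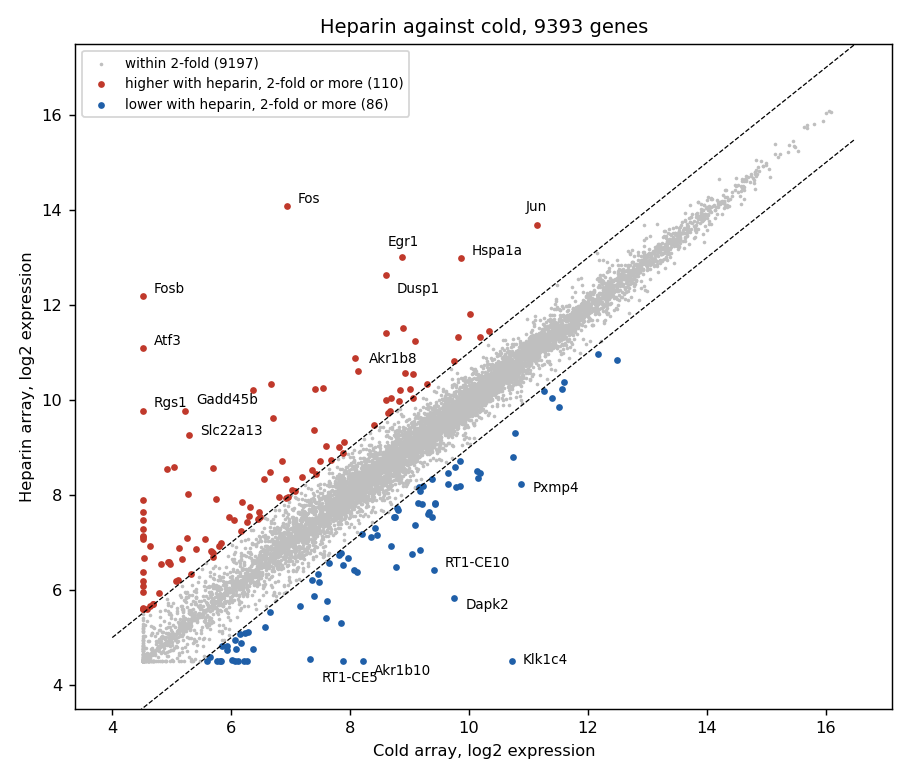
Log2 expression of 9393 genes on the heparin array (vertical axis) against the cold array (horizontal axis), 1 pooled array each. Points above the upper dashed line are the 110 genes higher with heparin by 2-fold or more, points below the lower line are the 86 lower, and the columns and rows of points at 4.51 are genes at the floor on 1 array.

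Kidney genes were at high levels on all arrays, such as uromodulin (Umod) of the thick ascending limb at 15.37 on the heparin, 15.52 on the warm, 15.41 on the PPS and 15.39 on the cold array. None of the 9 adrenal markers with a probe set was above the floor on any array, while 26 of 29 proximal tubule and 18 of 20 collecting duct markers were. The arrays had medians of 4.50 to 4.54 over all probe sets. All 24 probe sets for poly-A controls, bacterial RNAs added to the sample before labelling, were higher on the heparin array, by 0.51 to 2.60 with a median of 1.28, and they were higher on the warm and PPS arrays than on the cold array by medians of 1.25 and 1.098. The 18 probe sets for hybridisation controls, added just before hybridisation, were higher on the heparin than on the cold array by a median of 0.15. On the warm and PPS arrays they were higher than on the cold array by medians of 0.44 and 0.66. All 18 were lower on the heparin than on the warm array, with a median difference of -0.28. Scaling the arrays to the poly-A controls moves the median difference of all genes to -1.25 and leaves 34 genes higher and 7850 lower, and scaling to the hybridisation controls moves it to -0.11 with 87 higher and 112 lower. A positive difference smaller than the shift of 1.26 is therefore negative on the poly-A scale, and values below are as deposited unless stated. The probe set at the 3′ end exceeded that at the 5′ end by 3.39, 3.22, 3.19 and 2.79 for beta-actin on the heparin, warm, PPS and cold arrays and by 0.72, 0.84, 0.81 and 0.60 for GAPDH. For hexokinase it did so by 5.11, 4.95, 5.03 and 4.99. The cold array had the lowest value for the first 2 genes and not for hexokinase, and their part in the results was not tested.

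Fosb, Fos and Atf3, transcription factors of the immediate early group, had the largest differences among the genes analysed. Of 10 analysed AP-1 and related factors, 6 were higher by 2-fold or more and none was lower, with a median difference of 2.03 as deposited and 0.77 on the poly-A scale, against 1.17% of all genes higher and a median of 0. Fos, which pairs with Jun to form AP-1, was at 14.08 on the heparin array, 14.70 on the warm and 13.44 on the PPS array, and at 6.93 on the cold array. All warm-perfused arrays were far above cold, and heparin lay between PPS and warm. That is a difference of 7.15, or 142-fold, and 3.58 with the median over its probe sets. Fosb, another Fos family member, was at 12.18 with heparin, 13.47 on the warm and 11.27 on the PPS array and at the floor of 4.51 on the cold array, which makes it at least 204-fold higher. Atf3, a stress-induced repressor of inflammatory genes, was at 11.09 with heparin, 13.04 on the warm and 10.08 on the PPS array and at the floor on the cold array, so at least 95.6-fold higher, with a difference of 4.36 under the stricter floor.

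Jun and Junb, the partners of Fos, began from higher levels. Jun was at 13.69, 14.57 and 12.96 on the heparin, warm and PPS arrays and at 11.14 on the cold array, a difference of 2.54 or 5.83-fold. Junb was at 10.26, 11.65 and 9.67 against 7.54 on the cold array, or 6.58-fold. Cebpd, a factor of the acute phase response, was at 7.07 with heparin and 5.56 on the cold array, and it reached 8.66 on the warm array. The call for Cebpd ends with the stricter floor, at 0.34, and with the median over probe sets, at 0. Other members stayed inside the limit, with differences of 0.71 for Jund, 0.63 for Cebpb and 0.59 for Mafk. Maff, a small Maf factor, was at the floor on the heparin, PPS and cold arrays and at 6.07 on the warm array.

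Zinc finger factors of the Egr family and orphan nuclear receptors of the Nr4a family showed the same order of arrays. In the list that holds them with other early factors, 7 of 10 analysed genes were higher by 2-fold or more and none was lower, with a median of 2.76 as deposited and 1.57 on the poly-A scale. Egr1 was at 13.02 with heparin, 14.02 on the warm, 12.33 on the PPS and 8.87 on the cold array, a difference of 4.16 or 17.8-fold. Nr4a1 was at 10.33, 12.04 and 9.45 on the heparin, warm and PPS arrays and at 6.67 on the cold array, or 12.6-fold higher with heparin. Nr4a2 was at 8.54, 10.03 and 7.91 against 4.92 on the cold array, or 12.3-fold. Egr2 and Nr4a3 behaved differently from these on the supplemented arrays. Egr2 was at 7.29 with heparin and 9.55 on the warm array but at the floor on the PPS and cold arrays, so at least 6.86-fold higher with heparin. That call ends with the stricter floor, at 0.56, and with the median over probe sets, at 0.19. For Nr4a2 the stricter floor gives 1.81. Nr4a3 was at 7.52 on the warm array and at the floor on the other arrays, heparin included. Myc, a growth regulator, was at 6.18 with heparin and 6.06 on the cold array, against 7.59 on the warm array.

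Krueppel-like factors were split between members. Klf4 differed by 2.79, Klf6 by 2.64, Klf2 by 2.14 and Klf10 by 1.10, and the other 7 of 11 lay between -0.04 and 0.58, so the list median was 0.41 as deposited and -0.85 on the poly-A scale. Klf2 and Klf4 are known in endothelium as factors that answer to shear stress. Klf4 was at 10.88 with heparin, 11.91 on the warm, 10.08 on the PPS and 8.09 on the cold array. Klf9 and Klf15, which answer to glucocorticoids, were at 12.03 and 10.22 with heparin and at 11.88 and 10.26 on the cold array.

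**Figure D2:**
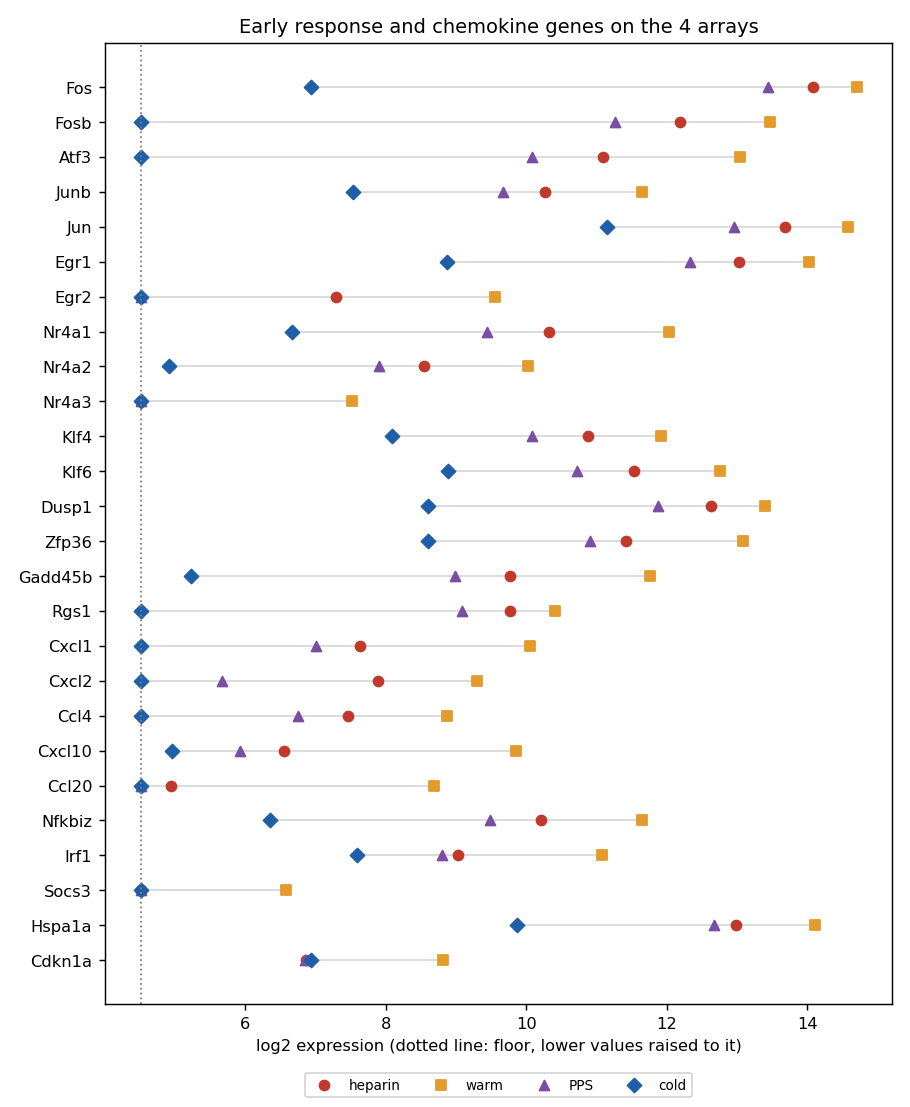
Log2 expression of 26 early response, chemokine and stress genes on the heparin (circles), warm (squares), PPS (triangles) and cold (diamonds) arrays, 1 pooled array each. Most circles lie between the triangle and the square and far right of the diamond, while for Nr4a3, Socs3 and Cdkn1a the circle is hidden by or next to the diamond.

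Some genes that end the early signals were higher with heparin, and most of their lists were not. Dusp1, a phosphatase that switches off MAP kinases, was at 12.63 with heparin, 13.40 on the warm, 11.88 on the PPS and 8.61 on the cold array, a difference of 4.03 or 16.3-fold. Zfp36 (tristetraprolin), which speeds the decay of cytokine messenger RNA, was at 11.42, 13.09, 10.91 and 8.60 on the same arrays, or 7.03-fold higher with heparin. Zc3h12a, a ribonuclease that also cuts cytokine messenger RNA, was at 7.09 with heparin and 5.26 on the cold array, or 3.55-fold, and 0.36 with the stricter floor, which ends the call. Of the 8 analysed genes of messenger RNA decay and cytokine feedback these 2 were higher and 1 was lower, with a median of 0.27 as deposited and -0.91 on the poly-A scale. Among 10 analysed MAP kinase feedback genes, 3 were higher and none lower, against 1.17% and 0.916% of all genes. Their median was 0.31 as deposited and -0.95 on the poly-A scale. Dusp6, the phosphatase of ERK, was at 10.73 with heparin and 10.78 on the cold array, against 11.67 on the warm array. Sprouty genes, inhibitors of receptor tyrosine kinase signals, lay inside the limit at 0.11 for Spry1, 0.51 for Spry2 and -0.82 for Spry4.

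Inhibitors of cytokine receptors went apart from these. Socs3, which blocks signals of interleukin-6 type receptors, was at 6.59 on the warm array and at the floor on the heparin, PPS and cold arrays. Cish, a target and inhibitor of STAT5, was lower with heparin, at 6.85 against 9.17 on the cold array, with 8.49 on the warm and 7.14 on the PPS array. Both supplemented arrays were low for Cish, and the warm array was nearer to cold. A second Cish probe set was at the floor with heparin and at 6.52 on the cold array.

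Regulators of G proteins and small GTPases included some of the largest differences. Rgs1, which shortens signals of chemokine receptors, was at 9.77 with heparin, 10.40 on the warm and 9.08 on the PPS array and at the floor on the cold array, so at least 38.3-fold higher. Rasd1, a Ras-like protein induced by glucocorticoids, was at 8.58 with heparin and 5.03 on the cold array, or 11.7-fold, and Rgs2 was at 10.24 and 7.41, or 7.09-fold. With the stricter floor the differences are 3.04 for Rgs1 and 1.85 for Rasd1. Sgk1, the kinase that raises sodium channel activity, was at 12.60 on both the heparin and the cold array. The median of the 8 analysed genes of this list was 0.61 as deposited and -0.62 on the poly-A scale. Of them 3 were higher and none lower, against 1.17% and 0.916% of all genes.

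The chemokines Cxcl1, Cxcl2, Ccl3 and Ccl4 were above the floor on every warm-perfused array and not on the cold array. Cxcl1 was at 7.64 with heparin, 10.05 on the warm and 7.01 on the PPS array, so at least 8.74-fold higher than on the cold array. Cxcl2 was at 7.89, 9.30 and 5.67 on the heparin, warm and PPS arrays, at least 10.4-fold higher with heparin. Both genes encode ligands of the neutrophil receptor Cxcr2. Ccl3 and Ccl4, chemokines released by macrophages, were at least 6.12-fold and 7.77-fold higher, with 7.13 and 7.47 on the heparin array and the floor on the cold array. Interleukin-1 beta (Il1b) was at 7.75 with heparin, 8.71 on the warm, 7.14 on the PPS and 6.32 on the cold array, or 2.70-fold higher. With the stricter floor the calls for Cxcl1, Ccl3 and Ccl4 end, at 0.91, 0.39 and 0.74, and Cxcl2 is at 1.16.

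Other chemokines stood far higher on the warm array than with heparin. Cxcl10, induced by interferon, was at 6.56 with heparin and 4.97 on the cold array, a 3.01-fold difference that the stricter floor takes to 0, against 9.86 on the warm array. Ccl20, which attracts Ccr6 cells, was at 4.95 with heparin and at the floor on the cold array, against 8.69 on the warm array. Among those that differed little, Ccl2, the main monocyte chemokine, was at 8.03 with heparin and 8.48 on the cold array, with 9.03 on the warm array. Tnf was above the floor on the warm array alone, at 5.46, and Il6, Il1a, Ccl5, Ccl7 and Cxcl3 were among 7 at the floor on all 4. Over the 16 analysed chemokine and cytokine genes, 6 were higher and none was lower, against 1.17% and 0.916% of all genes. Their median was 0.35 as deposited and -0.36 on the poly-A scale.

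Leukocyte markers were examined as a list. None of the 14 analysed leukocyte markers was higher or lower by 2-fold, which is near the share of 2.09% over all genes. Their median difference was -0.17, and the mean level over the list was 9.17 with heparin and 9.28 on the cold array. Markers of neutrophils such as S100a8 and S100a9, and of T cells such as Cd4 and Cd8a, were among 13 at the floor on all 4 arrays. The pan-leukocyte gene Ptprc differed by -0.23, and the macrophage gene Adgre1 was at 7.64 with heparin and 8.42 on the cold array.

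NF-kappaB subunits themselves differed little. Nfkb1, Nfkb2 and Rela differed by -0.24, 0.08 and -0.28. The list of 14 analysed NF-kappaB genes had a median of 0.04 as deposited, -0.0066 on the hybridisation scale and -1.15 on the poly-A scale. In it 3 were higher and none lower, against 1.17% and 0.916% of all genes. Those 3 were Nfkbiz, Tnfaip3 and Cd83. Nfkbiz, a nuclear inhibitor protein that also activates secondary response genes, was at 10.20 with heparin, 11.65 on the warm, 9.48 on the PPS and 6.36 on the cold array, or 14.4-fold higher, a difference of 3.84 that is 1.64 with the median over its probe sets. Tnfaip3 (A20), an enzyme that shuts down NF-kappaB, was at 8.48 with heparin and 6.66 on the cold array, or 3.54-fold. Cd83 differed by 1.09, or 0.985 on the hybridisation scale, which ends its call. Nfkbia, the classical inhibitor, differed by 0.96.

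Of 21 analysed interferon genes only the factor Irf1 passed the limit, against 1.17% of all genes higher. Irf1 was at 9.03 with heparin, 11.08 on the warm, 8.80 on the PPS and 7.59 on the cold array, so heparin was 2.71-fold above cold. Oasl, an antiviral gene, was at 5.86 with heparin and 5.15 on the cold array, against 8.82 on the warm array, and Ifit3 was above the floor on the warm array alone, at 6.05. Isg15, a ubiquitin-like modifier, was at 7.76 with heparin and 7.20 on the cold array, with 9.14 on the warm array. The median of the list was 0.22 as deposited and -0.98 on the poly-A scale.

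Stress and growth arrest genes showed both patterns. Gadd45b, a stress sensor upstream of p38 and JNK kinases, was at 9.77 with heparin, 11.76 on the warm, 8.99 on the PPS and 5.23 on the cold array, a difference of 4.54 or 23.3-fold. Gadd45g differed by 1.34 and Gadd45a by 0.57. Plk2, a polo-like kinase, was at 7.92 with heparin and 5.75 on the cold array, or 4.51-fold, and its difference is 1.19 with the stricter floor. Cdkn1a (p21), the cell cycle inhibitor under p53, was at 6.86 with heparin, 6.85 on the PPS and 6.94 on the cold array, against 8.82 on the warm array. Mdm2, another p53 target, differed by -0.06. Bcl6, a transcriptional repressor, was at 11.81 with heparin, 11.22 on the warm, 11.76 on the PPS and 10.02 on the cold array, so both supplemented arrays were above warm. Of the 15 analysed genes of this list 4 were higher and none lower, against 1.17% and 0.916% of all genes. The list median was 0.26 as deposited and -1.001 on the poly-A scale.

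Heat shock genes were higher in 2 of 18 analysed members, against 1.17% of all genes. Hspa1a, the inducible Hsp70, was at 12.99 with heparin, 14.11 on the warm, 12.68 on the PPS and 9.87 on the cold array, or 8.67-fold higher. Hspb1, the small chaperone Hsp27, was at 10.56 with heparin and 9.06 on the cold array, or 2.82-fold. Dnajb1, the Hsp40 partner of Hspa1a, was at 11.79 with heparin and 11.36 on the cold array, against 12.78 on the warm array. The list median was 0.03 as deposited, -0.03 on the hybridisation scale and -1.16 on the poly-A scale. Hmox1, the haem oxygenase induced by oxidative stress, was above the floor on the warm array alone, at 5.45.

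In the list of the unfolded protein and integrated stress response, 1 member passed the limit, against 1.17% of all genes higher. Ppp1r15a (Gadd34), which restores translation after eIF2alpha phosphorylation, was at 8.57 with heparin, 10.30 on the warm, 7.68 on the PPS and 5.70 on the cold array, or 7.30-fold higher, with a difference of 1.84 under the stricter floor. The other members of the 21 analysed lay inside the limit, down to -0.65, and the median was -0.05. Hyou1, a chaperone of the endoplasmic reticulum outside that list, was at 9.48 with heparin, 9.23 on the warm, 9.47 on the PPS and 8.41 on the cold array, or 2.10-fold higher, and is named here after its value was seen. Hspa5, the main chaperone of the endoplasmic reticulum, was at 14.10 with heparin and 13.95 on the cold array, Ddit3 (Chop) at 9.84 and 9.09, and Xbp1 at 11.61 and 11.81.

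Hypoxia and fuel genes included 4 that passed the limit, all of them higher, against 1.17% of all genes. Adm (adrenomedullin), a vasodilator peptide, was at 7.84 with heparin, 8.92 on the warm, 7.47 on the PPS and 6.19 on the cold array, or 3.15-fold higher, and Ddit4, an inhibitor of mTORC1, was at 9.78 with heparin and 8.68 on the cold array. Pdk4, which turns off pyruvate dehydrogenase, was at 9.36 with heparin and 7.39 on the cold array, or 3.92-fold, and Angptl4, an inhibitor of lipoprotein lipase, was at least 3.22-fold higher. Angptl4 was at 6.20 with heparin, 9.04 on the warm and 6.08 on the PPS array, and cold was at the floor. The stricter floor takes Angptl4 to 0, and the median over probe sets takes Pdk4 to 1.05. Glycolysis genes did not follow, with differences of 0.00 for Pgk1, -0.10 for Ldha and -0.15 for Eno1, and the lists of 22 hypoxia and 20 fatty acid genes had medians of -0.05 and -0.11.

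The 18 analysed antioxidant genes showed 1 call, and it was lower, against 0.916% of all genes. Gsr, the enzyme that regenerates reduced glutathione, was at 7.82 with heparin, 8.16 on the warm, 8.02 on the PPS and 9.44 on the cold array, or 3.07-fold lower. Nqo1, a standard target of NRF2, was at 7.41 with heparin and 6.67 on the cold array. The other analysed members of that list lay between -0.38 and 0.74.

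**Figure D3:**
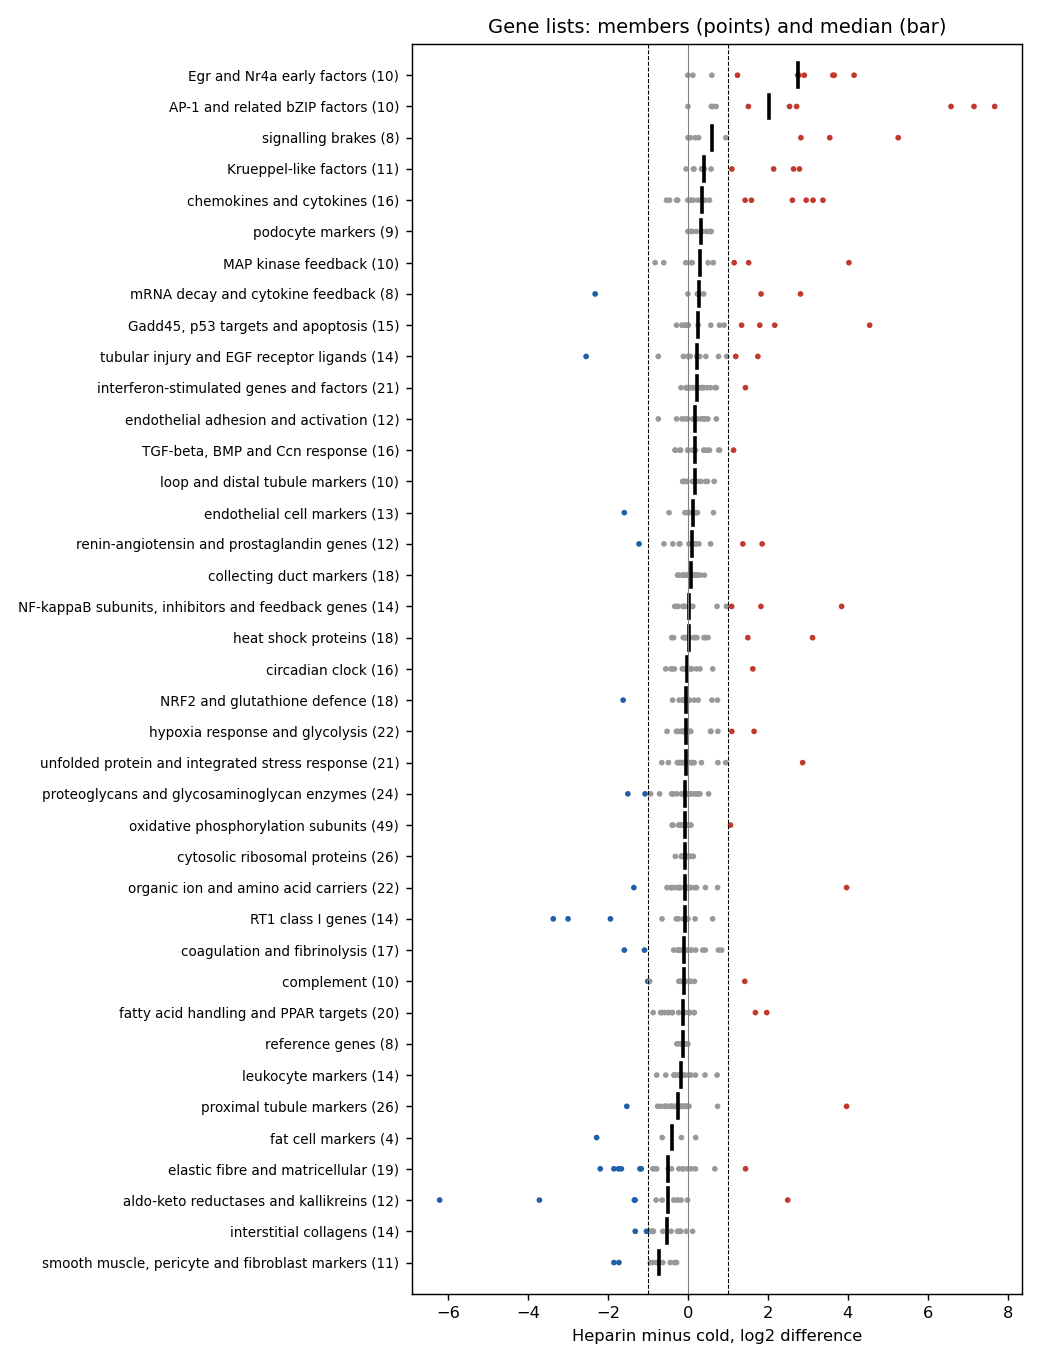
Log2 difference, heparin minus cold, of the analysed members (points) of each gene list with at least 4 of them, and the list median (bar), with the number of members in brackets and dashed lines at 2-fold. The Egr and Nr4a list and the AP-1 list have the highest medians, at 2.76 and 2.03, and keep them above 0 after scaling to poly-A controls, where every other list's median is below 0.

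Prostaglandin genes went both ways. Ptgs2 (cyclooxygenase-2), which makes prostaglandin H2 on demand, was at 8.72 with heparin, 9.43 on the warm, 8.26 on the PPS and 6.86 on the cold array, or 3.62-fold higher. Hpgd, which breaks prostaglandins down, was at 10.21 with heparin, 9.73 on the warm, 9.74 on the PPS and 8.84 on the cold array, or 2.59-fold higher. Ptgds, which makes prostaglandin D2, was at 10.38 with heparin and 11.60 on the cold array, or 2.33-fold lower. Agtr1a, the main angiotensin receptor, differed by -0.60.

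Among growth factors and injury genes, the heparin array held a ligand of the EGF receptor at a level the warm array did not. Areg (amphiregulin) was at 6.88 with heparin and 6.42 with PPS, against 5.22 on the warm and 5.13 on the cold array. Both supplemented arrays were above the other arrays, and heparin was 3.36-fold above cold, a call that ends with the stricter floor, at 0.15. Hbegf, another ligand of that receptor, was at 5.57 with heparin and 7.36 on the warm array, against 4.80 on the cold array. Egfr itself was at 5.30 with heparin, 6.40 on the warm, 5.96 on the PPS and 7.85 on the cold array, 5.83-fold lower with heparin, but a second probe set was at 6.35 with heparin and 5.82 on the cold array. The direction for Egfr therefore depends on the probe set, and the median over its probe sets is -0.52 and the stricter floor gives -1.11. Ccn1 (Cyr61), a matricellular target of YAP, was at 7.06 with heparin and 6.87 on the cold array, against 10.99 on the warm and 9.42 on the PPS array. Ccn2 (CTGF), its relative, was at 12.95 with heparin and 12.18 on the cold array.

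Genes of the interstitial matrix and its cells lay on the low side. Of 11 analysed markers of smooth muscle, pericytes and fibroblasts, all 11 had negative differences, from -1.85 to -0.28 with a median of -0.73, and 2 were lower by 2-fold or more, against 0.916% of all genes. Their mean level was 7.56 with heparin, 7.09 on the warm, 8.03 on the PPS and 8.41 on the cold array, and Rgs5, Cspg4, Des, Cnn1 and Notch3 were at the floor on all 4. Fewer such cells and less RNA per cell cannot be told apart, and some of these markers are matrix genes that also stand in the lists below. Pdgfra and Pdgfrb, receptors of fibroblasts and pericytes, differed by -0.73 and -0.79, Tagln and Myh11 of smooth muscle by -0.94 and -0.73, and Acta2 by -0.28. Cygb (cytoglobin), found in renal fibroblasts, was at 7.37 with heparin, 6.38 on the warm, 8.25 on the PPS and 9.09 on the cold array, or 3.30-fold lower.

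The list of elastic fibre and matricellular genes had the most differences past the limit of the 3 matrix lists. Of its 19 analysed genes 6 were lower and 1 higher, against 0.916% and 1.17% of all genes, with a median of -0.49 against 0. Elastin itself (Eln), Fbln1, Fbln2, Mfap4 and Mfap5 were among 9 members at the floor on all 4 arrays. Fbln5 (fibulin-5), needed to assemble elastic fibres, was at 7.54 with heparin, 6.20 on the warm, 8.24 on the PPS and 9.38 on the cold array, or 3.60-fold lower. Olfml3, a secreted glycoprotein, was at 5.41 with heparin, at the floor on the warm array, at 6.60 on the PPS and 7.60 on the cold array, or 4.56-fold lower, a call that ends with the stricter floor, at -0.87. Adamtsl2, a microfibril protein, was at 6.39, 5.76, 6.80 and 8.12, or 3.33-fold lower with heparin. In these 3 genes the warm array was the lowest, heparin came next and cold was the highest. Loxl1, which crosslinks elastin, was 2.29-fold lower, Igfbp3, the main carrier of insulin-like growth factors, 3.17-fold, and Efemp2 (fibulin-4) 2.24-fold. Smoc2 stood apart, at 5.17 on the warm array and 8.13 on the cold array, with a difference of -0.13 for heparin. The 1 member that was higher was Fndc1, at 5.96 with heparin and at the floor on the other arrays. The call for Fndc1 is lost with the stricter floor.

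Interstitial collagens were lower in 13 of 14 analysed genes by sign, with a median of -0.52. Only 2 passed the limit, against 0.916% of all genes. Col12a1 was at 7.83 with heparin, 6.85 on the warm, 8.54 on the PPS and 9.15 on the cold array, or 2.49-fold lower. With the median over its probe sets Col12a1 is at the floor on every array, so that call is lost. Col6a3 was 2.05-fold lower, or -0.53 with the median over its probe sets, which ends the call. Col1a1 and Col3a1, the main fibrillar chains, differed by -0.63 and -0.42. Both were higher on the PPS than on the cold array, with Col1a1 at 8.79 on the PPS and 8.38 on the cold array.

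Proteoglycans, whose sugar chains are related to heparin, were near 0 as a list. Of 24 analysed genes for proteoglycan cores and enzymes of heparan sulphate, 2 were lower, none was higher and the median was -0.06. The shares over all genes were 0.916% lower and 1.17% higher. Dcn (decorin) was at 10.19 with heparin, 10.13 on the warm, 10.54 on the PPS and 11.26 on the cold array, or 2.10-fold lower. Vcan (versican) was at 5.66 with heparin and 5.96 with PPS, against 7.08 on the warm and 7.16 on the cold array, or 2.83-fold lower with heparin. That call ends with the stricter floor, at -0.43, and with the median over probe sets, at -0.48. Unlike decorin, versican was low on the supplemented arrays and not on the warm array. The heparan sulphate polymerases Ext1 and Ext2 differed by 0.22 and -0.14, Ndst1 by -0.28 and the core Sdc4 by -0.12.

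Heparin is a ligand of the coagulation inhibitor antithrombin, and coagulation genes were examined for that reason. None of 17 analysed was higher and 2 were lower, against 1.17% and 0.916% of all genes. Vwf, the platelet adhesion protein of endothelium, was at 7.83 with heparin, 8.47 on the warm, 8.47 on the PPS and 9.42 on the cold array, or 3.01-fold lower. Serpine2 (protease nexin-1), a heparin-binding inhibitor of thrombin, was at 6.57 with heparin, at the floor on the warm array and at 7.52 on the PPS and 7.65 on the cold array, or 2.12-fold lower, and -0.92 with the stricter floor, which ends the call. Antithrombin (Serpinc1) differed by -0.25, tissue factor (F3) by -0.24, thrombomodulin (Thbd) by 0.44 and the endothelial protein C receptor (Procr) by 0.76. Apart from Vwf, the 13 analysed endothelial cell markers lay between -0.47 and 0.64, with Pecam1 at 0.03 and Kdr at 0.12, and their median was 0.12 as deposited and -1.13 on the poly-A scale. The adhesion gene Icam1 was at 9.27 with heparin and 8.77 on the cold array, against 10.74 on the warm array, and Vcam1 was at 8.20 with heparin, 8.82 on the warm and 8.94 on the cold array.

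Complement genes were split, with 1 higher and 1 lower of 10, against 1.17% and 0.916% of all genes. Cd55, which protects cells from complement, was at 8.34 with heparin, 8.13 on the warm, 8.19 on the PPS and 6.92 on the cold array, or 2.68-fold higher. The median over its probe sets is 0.78, inside the limit. C1r was at 8.16 with heparin and 9.16 on the cold array, just past the limit, with its partner protease C1s at a difference of -0.95, and C3 differed by -0.05.

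**Figure D4:**
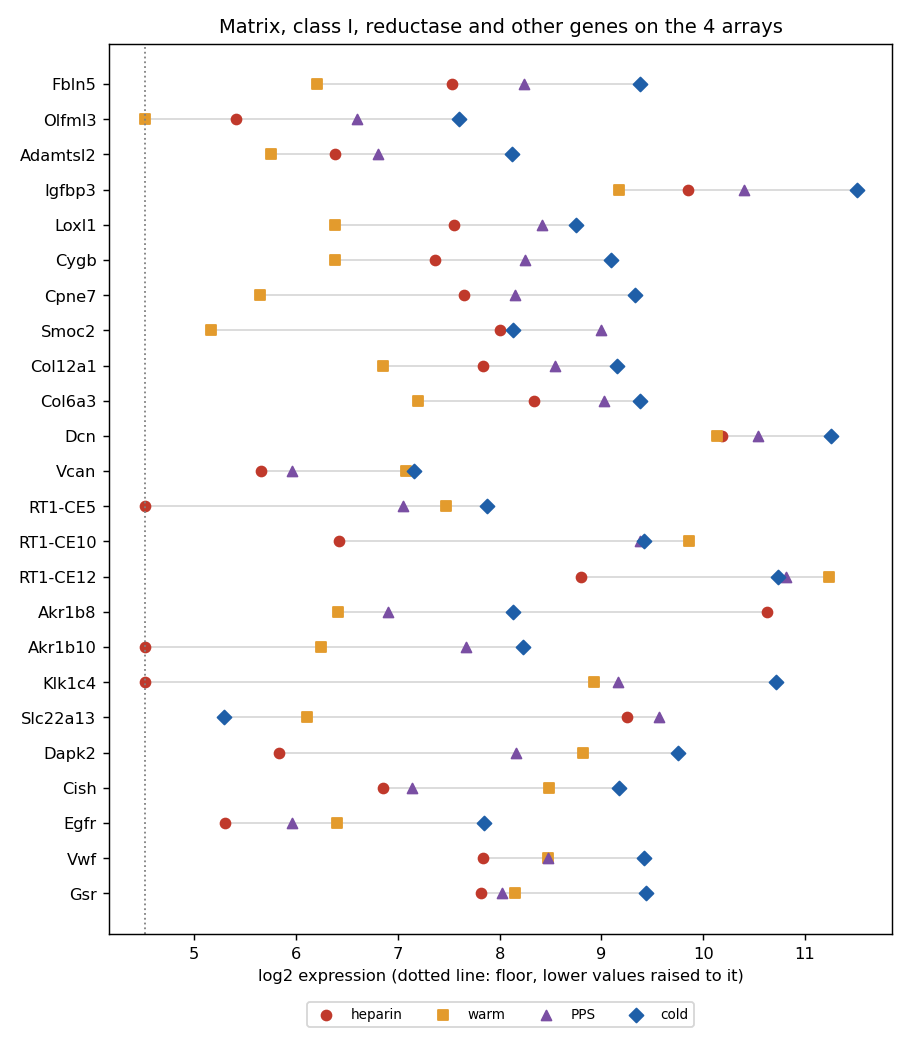
Log2 expression of 24 matrix, class I, reductase and other genes on the heparin (circles), warm (squares), PPS (triangles) and cold (diamonds) arrays, 1 pooled array each. For the matrix genes in the upper rows, apart from Vcan, the circle lies between the square and the diamond. For RT1-CE5, RT1-CE10, RT1-CE12, Klk1c4 and Dapk2 the heparin array alone is far left. For Akr1b10 heparin is leftmost and the warm array is next, at 6.25.

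A small set of genes had a level on the heparin array that no other array had. Heparin and the donor rats of that pool cannot be told apart here. Klk1c4, a tissue kallikrein of a rat gene cluster, was at the floor with heparin, at 8.93 on the warm and 9.16 on the PPS array and at 10.72 on the cold array, so at least 73.8-fold lower, and its difference is -3.99 with the stricter floor. Dapk2, a calmodulin-regulated death-associated kinase, was at 5.83 with heparin, 8.82 on the warm, 8.16 on the PPS and 9.76 on the cold array, or 15.2-fold lower. Pxmp4, a peroxisomal membrane protein, was at 8.23 with heparin and 10.11, 10.09 and 10.88 on the warm, PPS and cold arrays, or 6.30-fold lower. In each of these the warm and PPS arrays lay nearer to cold than to heparin. A second Pxmp4 probe set differed by -3.02.

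Class I genes of the rat major histocompatibility complex (RT1) were lower in 3 of 14 analysed members of their list, against 0.916% of all genes, and the list median was -0.08. RT1-CE5 was at the floor with heparin and at 7.47, 7.05 and 7.88 on the warm, PPS and cold arrays, at least 10.3-fold lower, with -1.15 under the stricter floor. RT1-CE10 was at 6.42 with heparin and at 9.86, 9.38 and 9.41, or 7.97-fold lower, and RT1-CE12 was at 8.80 with heparin and 10.74 on the cold array, or 3.83-fold lower. RT1-T24-4 differed by 0.62, and B2m, the light chain that all class I proteins share, by -0.05. Tap1, the peptide transporter, differed by 0.18. RT1 genes are near-identical and highly polymorphic, so which copy a probe set reads is uncertain.

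The aldo-keto reductases held opposite differences among close relatives. Akr1b8, an aldose reductase-like enzyme, was at 10.62 with heparin and at 6.41, 6.91 and 8.13 on the warm, PPS and cold arrays, 5.64-fold higher with heparin than cold. Akr1b10 was at the floor with heparin and at 6.25, 7.67 and 8.23, at least 13.1-fold lower. A second Akr1b10 probe set was at 6.02 with heparin and 6.78 on the cold array, a difference of -0.76, and choosing the probe set on the heparin and cold arrays alone takes that one and ends the call. The stricter floor gives -1.49 for Akr1b10. Akr1b1, aldose reductase itself, was at 10.23 with heparin, 11.53 on the warm, 10.23 on the PPS and 11.56 on the cold array, or 2.53-fold lower, and -0.67 with the median over its probe sets, which ends the call. These genes are related members of 1 family, as are the kallikreins, so the assignment of signal to 1 member is uncertain. Klk1, the true tissue kallikrein, differed by -0.64 and Klk1b3 by -0.26.

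Transport genes of the proximal tubule were close to their cold level. Of 26 analysed markers 23 had negative differences, and the median was -0.23. By 2-fold 1 was higher and 1 lower, against 1.17% and 0.916% of all genes. Slc22a13, an organic anion and urate carrier of the brush border, was at 9.26 with heparin and 9.57 with PPS, against 6.10 on the warm and 5.29 on the cold array. Both supplemented arrays were high, and heparin was 15.6-fold above cold, with a difference of 2.52 under the stricter floor. Slc22a12 (Urat1), another urate carrier, was at 13.68 with heparin and 12.94 on the cold array. Slc22a7, a carrier of organic anions, was at 5.22 with heparin and 6.57 on the cold array, 2.55-fold lower. The call for Slc22a7 is lost with the stricter floor. Dpep1, a brush border dipeptidase, was at 5.88 with heparin, at the floor on the warm array and at 7.40 on the cold array, 2.88-fold lower, and -0.67 with the stricter floor, which ends the call. Megalin (Lrp2) differed by -0.14, the phosphate carrier Slc34a1 by -0.19 and the glucose carrier Slc5a2 by -0.58.

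Markers of the other kidney segments did not pass the limit. Over 10 loop and distal tubule markers the median was 0.17, over 18 collecting duct markers 0.08 and over 9 podocyte markers 0.33 as deposited, and these are -1.09, -1.18 and -0.93 on the poly-A scale, with -0.03 for the collecting duct on the hybridisation scale. Slc8a1, the distal sodium-calcium exchanger, differed by 0.66 and Synpo of podocytes by 0.58, the highest of each list. Ribosomal protein genes differed by a median of -0.07 over 26 and subunits of oxidative phosphorylation by -0.07 over 49, of which only Cox5a passed the limit, at 8.74 with heparin and 7.67 on the cold array. Hbb, the beta globin chain, was at 8.20 with heparin, 8.71 on the warm, 9.22 on the PPS and 9.85 on the cold array, 3.13-fold lower, while Slc4a1, the only other analysed member of the red blood cell list, differed by 0.11. Car3, a carbonic anhydrase of fat and muscle, was at 6.49 with heparin, 8.26 on the warm, 7.67 on the PPS and 8.77 on the cold array, 4.86-fold lower, a call that ends with the median over its probe sets, at -0.93, and the fat cell genes Adipoq, Lep and Plin1 were at the floor on all 4.

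Lists not yet described had few members past the limit, against 2.09% of all genes. Nr1d1 (Rev-erb alpha), a repressor of the clock, was the 1 of 16 clock genes, at 6.59 with heparin, 7.38 on the warm, 6.95 on the PPS and 4.96 on the cold array, and the stricter floor takes its difference to 0. Id1, a target of BMP signals, was the 1 of 16 in the TGF-beta and BMP list, whose median was 0.17 as deposited and -1.09 on the poly-A scale. Krt19, a keratin of injured tubules, and Areg were the higher members and Egfr the lower one among 14 injury genes, with a median of 0.22 as deposited and -0.996 on the poly-A scale. None of 12 endothelial adhesion genes passed the limit, with a median of 0.18 as deposited and -0.96 on the poly-A scale. Nor did any of 8 reference genes, whose median was -0.11. The renin-angiotensin and prostaglandin list had a median of 0.11 as deposited, -0.0028 on the hybridisation scale and -1.15 on the poly-A scale.

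Genes outside the lists held 53 of the 110 that were higher and 57 of the 86 that were lower. Depp1, a FOXO-induced gene, was at 7.13 with heparin, 8.30 on the warm and 6.30 on the PPS array and at the floor on the cold array, at least 6.15-fold higher. Among the genes measured on all arrays whose heparin level was nearest to warm were Slpi, a secreted protease inhibitor, at 8.34 with heparin, 8.24 on the warm and 6.55 on the cold array, Urad, an enzyme of urate breakdown in rodents, at 7.96, 7.93 and 6.81, and Gsta3, a glutathione transferase, at 9.12, 8.98 and 7.90. Ccdc77 was among those farthest from warm, at 6.67 with heparin and 4.87 on the warm array, against 4.54 on the cold array. Of the lower genes, Abca8a, a lipid transporter, was at 4.56 with heparin, at the floor on the warm array and at 7.32 on the cold array, or 6.79-fold lower. Gldc, of the glycine cleavage system, was at 8.35 with heparin and 10.15 on the cold array, or 3.48-fold lower, and Cryga, a lens crystallin gene, was at 5.76 and 7.62. Sfrp1, a secreted inhibitor of Wnt signals, was at 7.82 with heparin, 7.79 on the warm and 9.20 on the cold array, and Septin11 was at 4.76, 4.76 and 6.37. With the stricter floor the calls for Depp1, Abca8a and Cryga end, at 0.40, -0.59 and -0.89. Ccdc77 and Septin11 are then at the floor on every array, so their calls are lost too. With the median over probe sets the calls for Ccdc77 and Sfrp1 end, at 0.85 and -0.41.

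The RefSeq table held promoter windows for 87 of the 110 higher genes and 65 of the 86 lower ones. Windows ran from 250 bases before to 50 after the gene start, and some genes had more than 1. A serum response element was in 5 of 94 windows of higher genes (5.32%), 2 of 73 of lower genes (2.74%) and 128 of 8745 windows of all genes analysed (1.46%). The 5 were those of Egr1, Egr2, Klf6, Zfp36 and Kif20b. An NF-kappaB site was in 11 of 94 windows (11.7%), against 6.85% for lower genes and 4.77% for all genes analysed. Those 11 included Cxcl1, Cxcl2, Cxcl10, Nfkbiz, Tnfaip3, Irf1 and Nr4a1. The cyclic AMP response element TGACGTCA was in 5.32% of windows of higher genes, in none of lower genes and in 3.01% of all analysed, and the 5 genes were Areg, Dusp1, Ier2, Plk2 and Ppp1r15a.

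Other motifs were searched on both strands as well. The AP-1 site TGANTCA was in 6.38% of windows of higher, 9.59% of lower and 4.84% of all analysed genes. The heat shock element GAANNTTC was in 13.8%, 11.0% and 5.81% of the same windows, and the interferon-stimulated response element GAAANNGAAA in 5.32%, 0% and 2.96%. The TATA box TATAAA was in 18.1%, 11.0% and 6.82%, and the Sp1 box GGGCGG in 58.5%, 60.3% and 61.8%. Over all 33469 windows in the table the shares were 1.64% for the serum response element, 4.18% for the NF-kappaB site, 1.83% for the cyclic AMP response element and 7.33% for the AP-1 site. These shares are descriptions of the windows and were not tested.

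**Figure D5:**
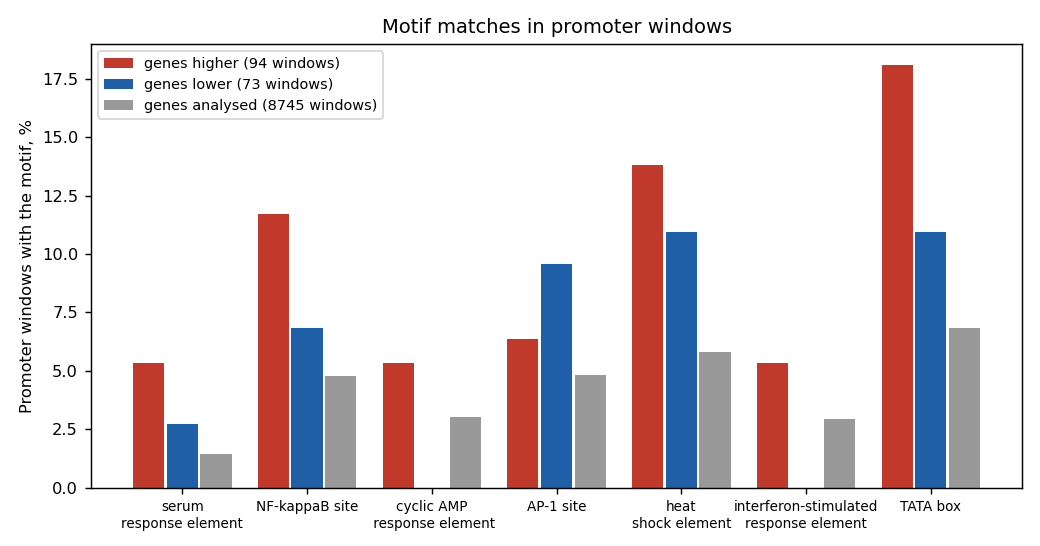
Share of RefSeq promoter windows that hold each motif, in percent, for the 94 windows of genes higher with heparin (left bar), the 73 of genes lower (middle bar) and the 8745 of all genes analysed (right bar). The left bar is the tallest for every motif drawn apart from the AP-1 site, and no window of the lower genes holds a cyclic AMP or interferon-stimulated response element.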

How the data were processed

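Kidney messenger RNA was measured on Affymetrix rat arrays, 1 per group, each with pooled RNA of 3 kidneys. The authors deposited 1 value per probe set, made with GCRMA (version not given in the sources used here) per the submitters' processing notes. The deposited values run from 2.11 to 16.4 and were read as log2, since no header states the scale. Of 31099 probe sets, 57 are controls, 20826 have 1 gene symbol, 436 several and 9780 none here, and 20758 of the first were found in RefSeq. Values under the 50th percentile were raised to it. Named genes were the 15 largest differences per direction measured on both arrays, the 8 largest bounds, the 10 nearest to and 10 farthest from the warm array, and members of 41 lists. Members and lists were chosen with earlier results of these data known. Alternatives changed the floor, the probe set rule, the scaling and the size limit. Counting was tested on simulated data. Python 3.11.15, pandas 2.3.3, numpy 2.4.6 and matplotlib 3.10.9 were used. The single array per group limits the precision of every value.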

Additional observations from a re-analysis of the deposited data

Results flagged for a closer look

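Akr1b8 differed by 2.50 between the heparin and the cold array, while it differed by -1.71 between the warm and the cold array and by -1.22 between the PPS and the cold array. The opposite signs drew attention to it, the 3 differences share the cold array, and the difference between them was not tested. Ly6al was at 4.74 with heparin, 7.19 on the warm, 4.91 on the PPS and 5.93 on the cold array, a difference of -1.19 with heparin against 1.27 on the warm array, and this was not tested either. With the floor at the 60th percentile the difference for Ly6al is 0.

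Probe sets without a single gene symbol were outside the comparison of genes. Of 3510 such probe sets above the floor, 95 (2.71%) were higher with heparin by 2-fold or more and 47 (1.34%) were lower, against 1.17% and 0.916% of named genes. The probe set with the highest difference was at 10.90 with heparin and 5.01 on the cold array, and the one with the lowest was at the floor with heparin and at 11.77 on the cold array. Their genes are not named here.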

How the results depend on the processing

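No paired analysis was possible because each group has 1 array, and for the same reason no replicate could be left out. The 110 genes higher and 86 lower with heparin became 64 and 55 with the floor at the 60th percentile, 496 and 389 at a size limit of 0.5, 34 and 12 at a size limit of 2, and 34 and 7850 when arrays were scaled to poly-A controls. The first 3 follow from the construction of the alternative, and the cause of the poly-A shift was not tested. No floor, a floor at the 40th percentile, other rules for the probe set, centring, quantile normalization and scaling to hybridisation controls gave between 87 and 129 higher and between 85 and 112 lower. With the median over probe sets, 86 of the 110 and 64 of the 86 remained among its 93 and 85 calls. Of the named genes, 22 calls fell inside the limit with the floor at the 60th percentile and 14 with the median over probe sets. The probe set chosen on the heparin and cold arrays ended 1. These counts leave out named genes that were then above the floor on no array, whose calls are lost too. Examples are Ccdc77 and Coro6 with the stricter floor and Col12a1 with the median over probe sets. Scaling to hybridisation controls also ended calls just past the limit. Those were Cd83 at 0.985, Cmpk2 at 0.944, Coro6 at 0.993, Cox5a at 0.957, Ddit4 at 0.990, Klf10 at 0.991, Plppr4 at 0.916 and Rapgef4 at 0.991. With quantile normalization C1r was at -0.998. Of 121 named genes, 16 turned negative under poly-A scaling and none changed sign under the other settings. The 16 values are -0.16 for Cd83, -0.20 for Cmpk2, -0.15 for Coro6, -0.19 for Cox5a, -0.16 for Ddit4, -0.10 for Dusp2, -0.037 for Gsta3, -0.12 for Id1, -0.018 for Ier5, -0.16 for Klf10, -0.061 for Krt19, -0.23 for Plppr4, -0.16 for Rapgef4, -0.14 for Sync, -0.13 for Tmod2 and -0.11 for Urad. Differences of genes near the floor rest on signals that the floor itself can set.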

Other observations

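The genes here lie outside the gene lists and, apart from Gucy1a1, Jchain and Ighl2, were singled out after their values were seen. Both subunits of soluble guanylate cyclase, the nitric oxide receptor of vascular cells, were lower with heparin, with Gucy1a1 at 8.23 against 9.66 on the cold array and Gucy1b1 at 7.12 against 8.35, although the median over probe sets of Gucy1a1 is -0.76. Jchain, which joins polymeric antibodies, was at 6.76 with heparin, 7.98 on the warm and 9.04 on the cold array, Ighl2 was at 6.93, 7.56 and 8.69, and Cxcl13, the B cell chemokine, was at 7.61, 8.94 and 9.31. The median over probe sets of Jchain is a difference of -1.10. The retinol saturase Retsat was at 10.85 with heparin and 12.50 on the cold array, and the retinol dehydrogenase Rdh16 was at 8.17 and 9.79.

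Cxcr4, the receptor of Cxcl12, was at 6.38 with heparin, 8.16 on the warm and 6.57 on the PPS array and at the floor on the cold array, at least 3.64-fold higher. Mmp9, a gelatinase, was at 6.08 with heparin, 4.86 on the warm and 5.21 on the PPS array and at the floor on the cold array, at least 2.97-fold higher and the highest on the heparin array. The nucleolar genes Nom1 and Nat10 were at 10.00 and 6.71 with heparin and at 8.60 and 5.69 on the cold array. Other probe sets of Nom1 differed by 0 and 0.28. With the stricter floor the calls for Cxcr4, Mmp9 and Nat10 are lost.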
